A study of Mus musculus with 14 samples.

Results

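The chromatin around 8 genes of the growth-factor response was examined: the early growth response genes Egr1, Egr2 and Egr3, the immediate early response genes Ier2, Ier3 and Ier5, and the 2 MYC family genes Myc and Mycn. A region belonged to one of them when the nearest start of a protein-coding gene, at most 50 kb away, was its own. This gave 90 regions, out of 84402 regions with such a gene and 124598 regions in all. Mycn had 17 of them, Myc 13, Ier2 23, Ier5 12, Ier3 8, Egr1 7, Egr3 7 and Egr2 3. The nearest start is a rule of position, and no contact between a region and its gene was measured. The farthest region inside the limit, 48.1 kb from Ier2, had a peak in 1 library, and the nearest one outside, 50.5 kb from Ier5, in 9. RNA was not measured in these libraries either, so nothing below shows that a gene was expressed.

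All 14 libraries came from KH2, a mouse embryonic stem (ES) cell line of strain C57BL/6 with a TRE:GATA6-DSREd2 transgene, which doxycycline (Dox) switches on. ATAC-seq, in which a transposase cuts and tags open DNA, was run on 50000 cells per library, with 2 libraries at each of 0, 2, 4, 8, 16, 24 and 48 h. The 0 h cells were in 2i medium, with LIF, the MEK inhibitor PD0325901 and CHIR9902, and without Dox. The 2, 4 and 8 h cells were in serum medium with LIF and 1 µg/mL Dox. The 16, 24 and 48 h cells had Dox for 12 h and then the same medium without it. Transgene induction, arrival of serum, removal of the MEK inhibitor and of CHIR9902, and the change of medium therefore came together. Their parts in any difference from 0 h cannot be told apart, since no library was from serum-treated cells without Dox.

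Immediate-early genes are transcribed within minutes of a growth signal, from factors the cell already holds. In the best known route, the kinases MEK and ERK activate ETS-family partners of the serum response factor SRF, which sits on CArG boxes in promoters such as that of Egr1. Among the first products are FOS and JUN, whose dimers form AP-1. Its motif was sought here as TGANTCA with any base as N, and below the AP-1 motif means any match to this string. EGR1, EGR2 and EGR3 are zinc-finger transcription factors, with EGR2 best known from hindbrain and myelinating Schwann cells and EGR3 from muscle spindles. IER2 is a nuclear protein, IER3 acts in cell survival and ERK signalling, and IER5 acts on the heat shock factor HSF1. MYC and MYCN are basic helix-loop-helix factors that pair with MAX, bind the E-box CACGTG and drive growth of ES cells.

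The regions that carry the early pattern are shown first. Each region is named by its gene and the distance of its centre from the gene start in bp, negative upstream and positive downstream. A region was called gained at a time point when both libraries there held a peak and neither 0 h library did, and lost in the reverse case. There were 6 regions held by all libraries of 2 h and 4 h and by none of 0, 24 and 48 h, and their central 200 bp are given below on the plus strand of GRCm38. Capitals mark matches on either strand to AP-1 (TGANTCA) or to the GATA motif (GATA after A or T and before A or G), and no match overlaps another. The windows lie at chr14:70067944-70068143, chr14:70087347-70087546, chr8:84668839-84669038, chr17:35795854-35796053, chr15:61991929-61992128 and chr15:61998925-61999124, in the order shown.
Egr3 -9159: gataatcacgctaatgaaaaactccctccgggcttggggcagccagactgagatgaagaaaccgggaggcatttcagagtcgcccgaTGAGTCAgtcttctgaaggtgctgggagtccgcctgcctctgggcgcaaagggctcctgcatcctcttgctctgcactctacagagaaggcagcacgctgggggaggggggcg
Egr3 +10244: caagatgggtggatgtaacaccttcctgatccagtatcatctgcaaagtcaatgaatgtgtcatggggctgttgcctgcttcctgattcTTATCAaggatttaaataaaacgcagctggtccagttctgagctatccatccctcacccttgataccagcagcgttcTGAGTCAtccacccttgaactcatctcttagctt
Ier2 -6087: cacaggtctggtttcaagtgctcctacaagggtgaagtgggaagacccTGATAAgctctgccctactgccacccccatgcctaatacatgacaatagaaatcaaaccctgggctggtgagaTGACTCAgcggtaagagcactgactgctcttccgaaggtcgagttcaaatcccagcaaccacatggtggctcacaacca
Ier3 -25730: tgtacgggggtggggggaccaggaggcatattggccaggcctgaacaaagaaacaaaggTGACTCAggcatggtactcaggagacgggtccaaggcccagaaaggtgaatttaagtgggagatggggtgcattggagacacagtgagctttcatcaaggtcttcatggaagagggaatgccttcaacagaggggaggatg
Myc +6638: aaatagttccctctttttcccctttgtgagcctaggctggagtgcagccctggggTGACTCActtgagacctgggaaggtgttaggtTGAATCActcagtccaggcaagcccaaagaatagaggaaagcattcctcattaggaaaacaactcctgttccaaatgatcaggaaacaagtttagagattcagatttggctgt
Myc +13634: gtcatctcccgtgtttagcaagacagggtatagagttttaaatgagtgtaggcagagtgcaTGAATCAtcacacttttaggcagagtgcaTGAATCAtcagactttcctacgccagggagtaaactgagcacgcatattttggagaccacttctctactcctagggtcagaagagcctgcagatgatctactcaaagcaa

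All 6 windows held the AP-1 motif as sought, TGANTCA, and both Myc windows held it at 2 places. Both matches in Myc +13634 and that at bases 88 to 94 in Myc +6638 read TGAATCA. The remaining matches shown read TGAGTCA or TGACTCA, and shares by the base at N were not counted. Of all 2270 assigned regions with this early pattern, 55.1% held a TGANTCA match too. In Egr3 -9159 the match is bases 88 to 94 of the window, and in Ier3 -25730 it is bases 60 to 66. The GATA motif was also in Egr3 +10244 and Ier2 -6087. The other 5 regions are intergenic, whereas Ier2 -6087 is in an exon of the non-coding gene Gm26664, and 48.5% of its window is masked as repeat in the assembly. Whether repeats touched read placement there was not tested. With the 50000 highest peaks of each list, Ier3 -25730 had a peak in 3 libraries in place of 5. Its peak in a 4 h library, at the 7.1 percentile, was among those dropped, so it no longer held the pattern.

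A pair of regions with other courses is set against them. Mycn -3753, at chr12:12945567-12945766, was gained at 2 h and kept to 48 h, and its window has 2 GATA matches in capitals and no AP-1 match. Myc -6412, at chr15:61978879-61979078, was called at 0 h alone, and none of the 7 motifs sought is in its window.
Mycn -3753: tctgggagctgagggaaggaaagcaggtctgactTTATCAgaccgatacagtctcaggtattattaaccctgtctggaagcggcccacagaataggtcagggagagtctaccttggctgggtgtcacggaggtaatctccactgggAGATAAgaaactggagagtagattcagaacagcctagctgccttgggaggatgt
Myc -6412: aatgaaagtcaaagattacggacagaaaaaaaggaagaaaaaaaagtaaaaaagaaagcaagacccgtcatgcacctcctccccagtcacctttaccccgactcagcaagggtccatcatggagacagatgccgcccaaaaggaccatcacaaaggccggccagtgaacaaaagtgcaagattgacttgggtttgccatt

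Within 2 h, distal regions near Egr2, Egr3, Ier2, Ier3, Ier5, Myc and Mycn gained peaks. Others near Ier2, Ier5, Myc and Mycn lost theirs. Of the 90 regions, 12 (13.3%) were gained at 2 h, against 7.88% of all assigned regions, and 9 (10%) were lost, against 5.61%. At 4 h 11 (12.2%) were gained, against 9.12%, and 13 (14.4%) were lost, against 6.34%. Gains at both 2 and 4 h numbered 9 (10%), against 4.95% of all, and losses at both numbered 8 (8.89%), against 4.07%. The pattern of the 6 regions above, with a background of 2.69%, made up 6.67% of the 90. With 2 libraries against 2 an exact permutation test cannot go below p = 0.333, so these shares carry no test, and fewer cells with an open site cannot be told apart from less opening per cell.

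The early excess of gains was not there later. Gains were 5 regions (5.56%) at 8 h and 5 at 16 h, under the 10.3% and 12.6% of all assigned regions. They were 8 (8.89%) at 24 h and 10 (11.1%) at 48 h, against 11.4% and 14.1%. Losses stayed above the share of all regions throughout, with 12 (13.3%) at 8 h against 8.27%, 11 (12.2%) at 16 h against 8.00%, 14 (15.6%) at 24 h against 11%, and 19 (21.1%) at 48 h against 14.4%. From 2 to 4 h the 8 genes gained 1 region (1.11%, against 3.80% of all assigned regions) and lost 5 (5.56%, against 3.09%). No later step between neighbouring time points held as many gains or losses as the 12 and 9 of the step from 0 to 2 h. That step was also the largest over all assigned regions, with 7.88% gained and 5.61% lost. Later steps reached at most 5.37% gained (8 to 16 h) and 5.51% lost (16 to 24 h).

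**Figure D1:**
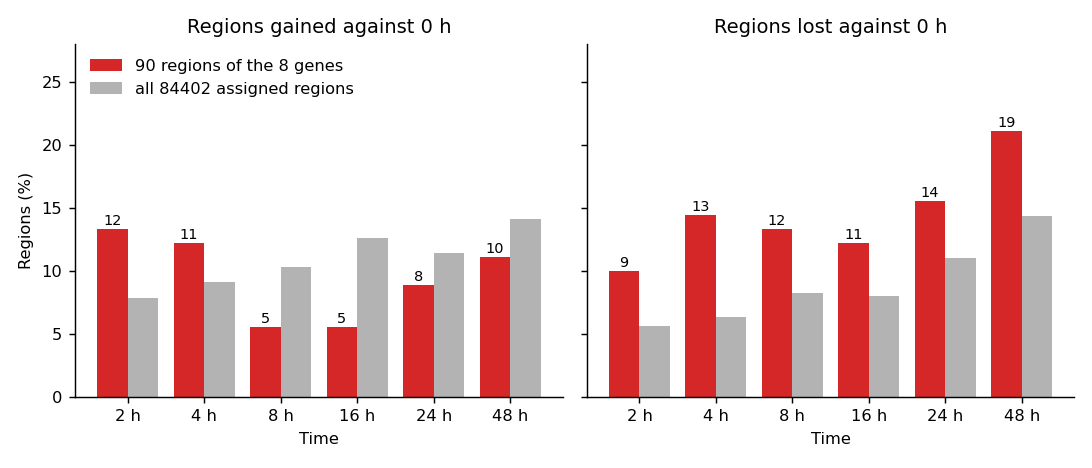
Share of regions gained (left) and lost (right) against 0 h at each time point, in percent, for the 90 regions of the 8 genes (red, with counts) and for all 84402 assigned regions (grey). Red bars stand above grey for gains at 2 and 4 h and under grey from 8 h on, and above grey for losses at all 6 time points.

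Regions gained at 2 h were mostly given up again, near the 8 genes as among all assigned regions. Of the 12, 79.2% ± 5.89 (SD, n = 2 libraries) had a peak at 4 h, 41.7% ± 11.8 at 8 h, 25% at 24 h in each library and 16.7% at 48 h in each library. For all 6649 assigned regions gained at 2 h the shares were 70.8% ± 2.31 at 4 h, 53.9% ± 0.596 at 8 h and 23.1% ± 0.50 at 48 h. Regions with a peak in all 14 libraries made up 14.4% of the 90 (13 regions), against 19.2% of all assigned regions. A further 11 regions were called in 1 library only, and 16 never had a peak in both libraries of a time point. The score that the deposited lists give each peak has no stated scale, so it was read only as a percentile, the rank of a region's highest peak among all peaks of its library. Per library, 38 to 52 of the 90 regions held a peak, the most at 2 h (52 and 51) and the fewest at 48 h (38 and 41).

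**Figure D2:**
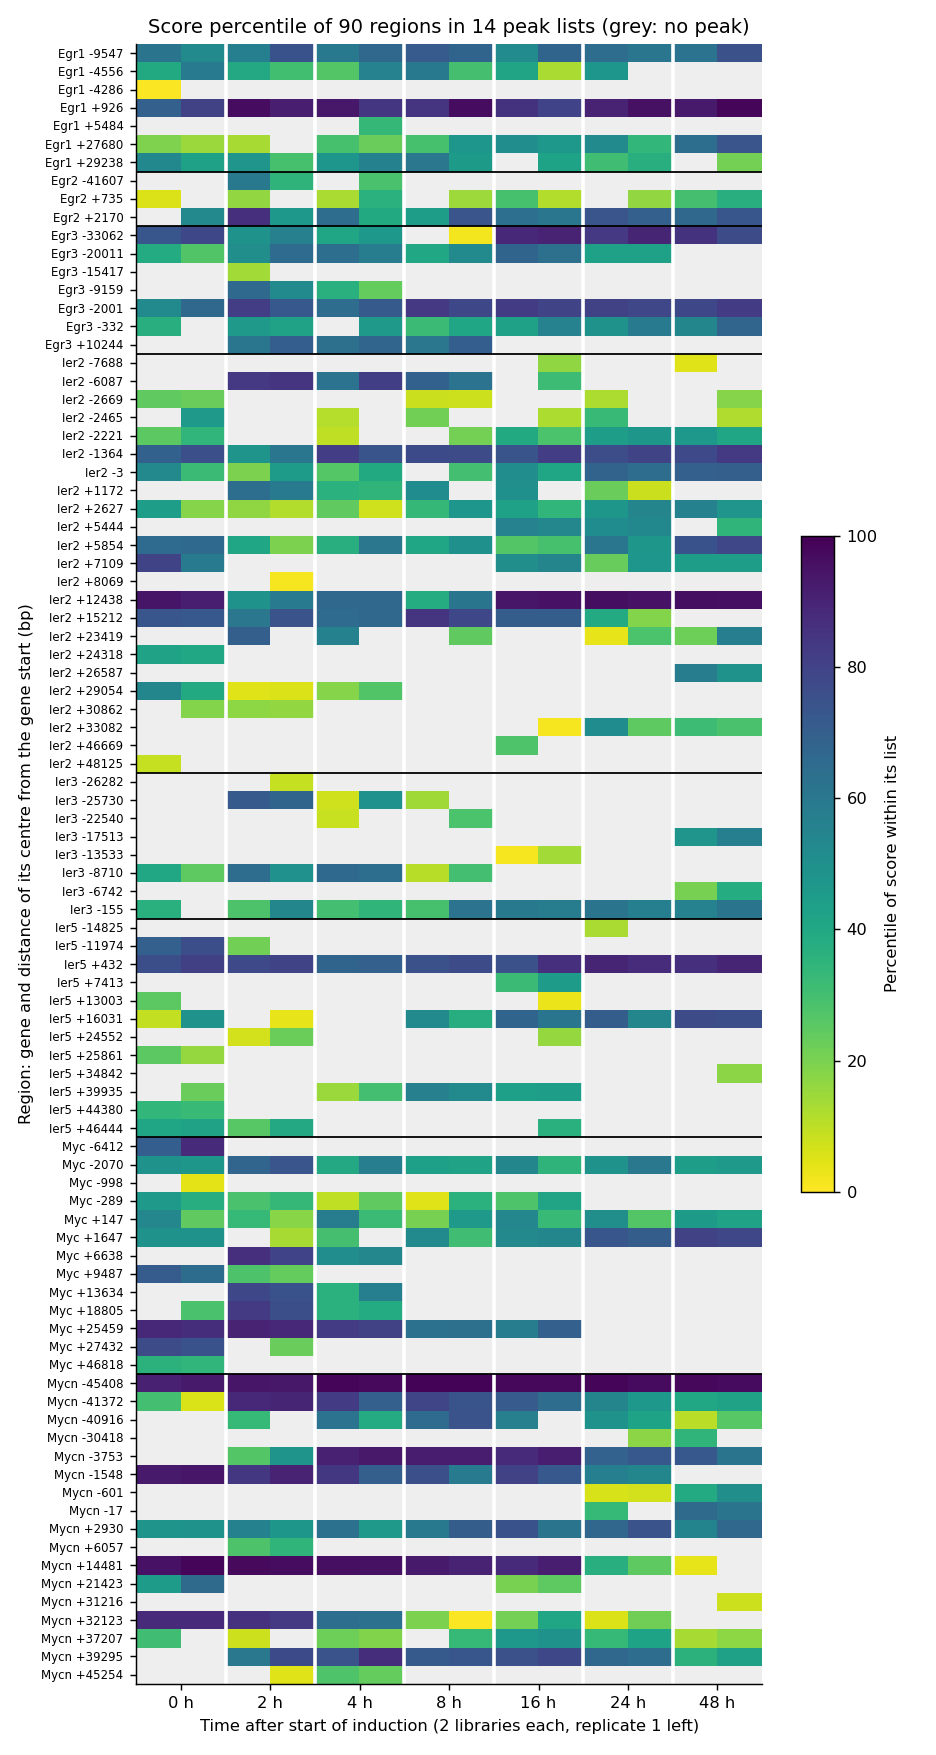
Map of the 90 regions (rows, named by gene and distance from its start in bp, in order along each gene) in the 14 peak lists (columns, 2 per time point), coloured by the percentile of the region's peak score within its list, with grey for no peak. The blocks filled only at 2 and 4 h in Egr3 and Myc, the rows of Myc that end between 0 and 24 h, and the Mycn rows that start at 2 h can be seen.

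Near the 8 genes, no region gained or lost at 2 h had its centre within 1 kb of a gene start. The 11 regions within 1 kb of a start (12.2% of the 90, against 19.4% of all assigned regions) held none of the 12 gains and none of the 9 losses of 2 h. Among all assigned regions few were within 1 kb as well, 4.86% of the gains and 7.80% of the losses of 2 h. The gain of the 8 genes nearest to a start was Ier2 +1172, in the untranslated region of Ier2. The promoter regions of Egr1, Ier2, Ier5 and Myc were called in both 0 h libraries, those of Egr2, Egr3 and Ier3 in 1, and that of Mycn in neither.

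The Egr1 promoter region, Egr1 +926, is 1879 bp long and reaches into the gene's untranslated region. It stood at the 69.4 and 80.6 percentiles at 0 h, 96.8 and 91.5 at 2 h, 93.4 and 84.2 at 4 h, 84.5 and 96.6 at 8 h, 85.4 and 79.9 at 16 h, 90.4 and 95.5 at 24 h, and 92.9 and 98.5 at 48 h. Both 2 h libraries were above both 0 h libraries, but 16 h overlapped 0 h, and the percentile did not pass the exact F permutation test over all 14 libraries (adjusted p = 0.134). Its window held 2 CArG boxes and 2 ETS motifs (CCGGAA), while CArG boxes were in 0.856% of all windows and in 1 other window of the 90, that of Egr3 -332.

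The Ier5 promoter region, Ier5 +432, changed. It was at the 75.8 and 80.9 percentiles at 0 h, 78.1 and 79.5 at 2 h, 67.6 and 69.4 at 4 h, 75.2 and 76.7 at 8 h, 75.0 and 86.4 at 16 h, 89.7 and 87.1 at 24 h, and 86.7 and 89.5 at 48 h. The 4 h libraries were the lowest and the 24 and 48 h libraries the highest (exact F permutation test, adjusted p = 0.0337). The call was lost when any library of 2, 4, 8, 24 or 48 h was left out (adjusted p from 0.0602 to 0.0983), and by peak width (0.203). The Myc promoter region, Myc +147, ranged from the 17.8 percentile in a 2 h library to 57.8 in a 4 h library, with replicates as far apart as time points (same exact test, adjusted p = 0.867). Of the 13 regions of these genes that could be tested in this way, 5 passed, against 35.7% of all 18809 regions called in every library.

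The remaining promoters could not be tested, because some library lacked a peak. Ier2 -3 was at 53.1 and 31.7 at 0 h and at 68.2 and 64.3 at 24 h and 69.2 and 69.9 at 48 h, with a lone miss in an 8 h library. Egr3 -332 reached 54.1 and 67.5 at 48 h and Ier3 -155 reached 55.5 and 61.7. Egr2 +735 was called in 10 libraries, never above the 37.3 percentile, and in 6 with the 50000 highest peaks of each list. Ier3 -155 was called in 13 libraries, but in 5 when at least 50% of the region had to be covered.

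**Figure D3:**
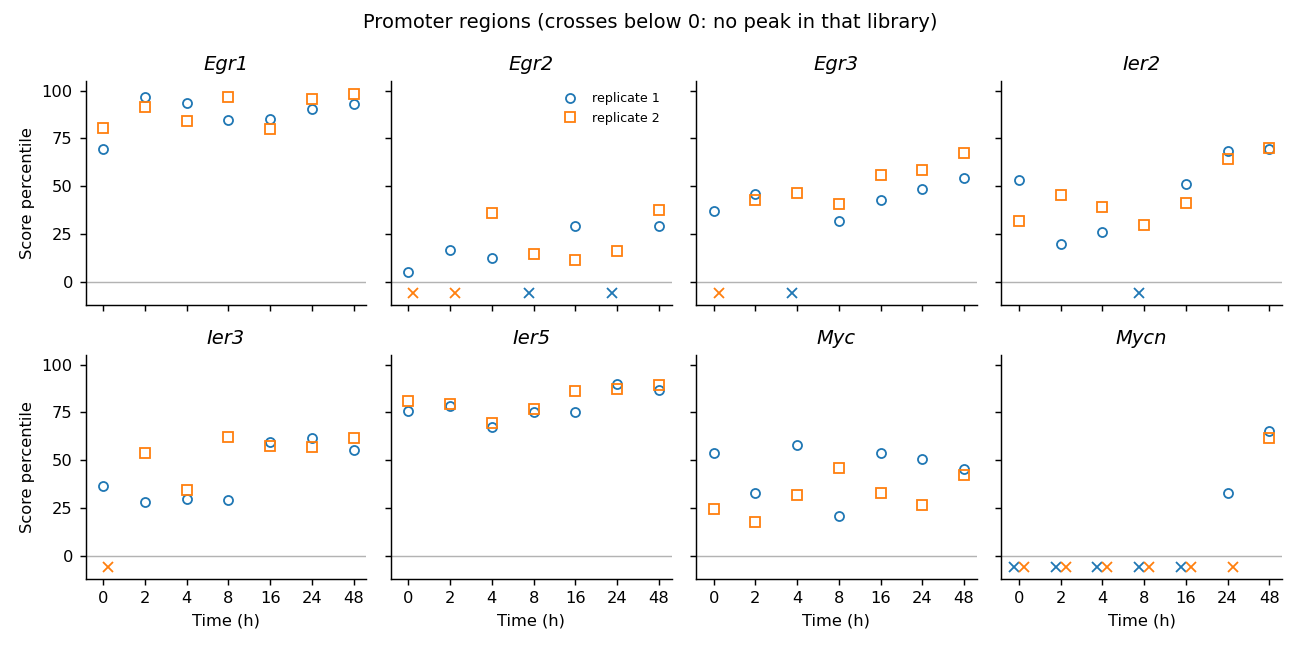
Score percentile (0 to 100) of the promoter region of each gene at each time point (evenly spaced), with 1 point per library and a cross where the library had no peak. Egr1 stays between 69.4 and 98.5 and Ier5 between 67.6 and 89.7, whereas the Mycn start has a peak in 3 libraries, of 24 and 48 h.

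The Egr genes differed among themselves. The length of DNA under peaks in all regions of a gene, called covered length here, gives each gene 1 value per library. For Egr3 it was 2.17 and 2.14 kb at 0 h, 4.49 and 4.17 kb at 2 h, 3.02 and 3.45 kb at 4 h, 1.97 and 2.75 kb at 8 h, 2.33 and 2.28 kb at 16 h, 2.27 and 2.31 kb at 24 h, and 1.41 and 1.53 kb at 48 h. The 2 h libraries were above all others, those of 4 h came next, and those of 48 h were the lowest, while 0, 8, 16 and 24 h lay close together. Time points differed (exact F permutation test, p = 0.000681, adjusted p = 0.0161 over 17435 genes). Covered length passed this test for 4 of the 8 genes, against 23.0% of all genes and 27.0% of those with 3 to 23 regions. Leaving out any 1 library left 2 or 3 of the 4, as given for Ier3 and Ier5 below. Of the 4, Egr3 and Myc alone passed without 2 h replicate 2 or without any library of 4, 24 or 48 h. With regions called counted in place of bp, none of the 4 passed the exact test (adjusted p from 0.0572 to 0.0947). Egr3 also passed within the serum libraries alone (exact test, adjusted p = 0.0340).

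For Egr1 and Egr2 the covered length did not pass the exact test (adjusted p = 0.353 and 0.416). Egr1 covered 3.13 kb ± 0.10 (SD, n = 2) at 0 h, 2.59 kb ± 0.43 at 2 h and 3.39 kb ± 0.46 at 4 h. Egr2 covered 0.48 kb ± 0.13 at 0 h, 1.05 kb ± 0.27 at 2 h and 0.93 kb at 48 h. In the order of their levels each time point of Egr1 overlapped its neighbour. So did those of Egr2 apart from 16 and 48 h, at 0.94 and 0.93 kb.

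Gains near the Egr genes were distal. Egr3 -9159 stood at the 65.8 and 52.1 percentiles at 2 h and at 36.6 and 23.5 at 4 h, and had no peak in any other library. Egr3 +10244 was at 60.6 and 70.0 at 2 h, 63.1 and 67.3 at 4 h, and 60.4 and 70.0 at 8 h, and was absent otherwise. Egr2 -41607, named after its values were seen, was gained at 2 h alone (59.7 and 35.1), with a peak in 1 of 2 libraries at 4 h (28.7). Egr1 had no gain at any time point, and its only loss was Egr1 -4556 at 48 h, a region called in both libraries up to 16 h. Egr3 -20011, in an intron of Pebp4, was likewise called until 24 h and lost at 48 h.

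The Ier genes lost as well as gained. Ier5 had the largest fall in covered length of the 8 genes from 0 to 4 h. It covered 3.75 and 4.62 kb at 0 h, 2.15 and 2.61 kb at 2 h, 0.908 and 0.983 kb at 4 h, 2.31 and 2.92 kb at 8 h, 2.14 and 3.58 kb at 16 h, 1.70 and 1.89 kb at 24 h, and 1.71 and 2.40 kb at 48 h. The 0 h libraries were the highest and the 4 h libraries the lowest, and those between overlapped in part (exact F permutation test, adjusted p = 0.0399). Within the serum libraries alone, without 0 h, the call was lost in the same exact test (adjusted p = 0.155). It was lost too within 20 kb (0.0969) and when any library other than those of 16 h was left out (adjusted p from 0.0650 to 0.115). At 4 h 5 of the 12 Ier5 regions were lost, and 2 had a peak. Ier5 +25861 and Ier5 +44380, in introns of non-coding genes, were called at 0 h alone, at the 25.3 and 15.7 and the 34.0 and 32.5 percentiles. Ier5 +16031, of 1448 bp and named after its values were seen, was called in both 0 h libraries, in 1 at 2 h and in neither at 4 h, and was back in both from 8 h, at 77.2 and 75.8 by 48 h.

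Ier3 covered 1.26 and 0.78 kb at 0 h, 1.73 and 2.12 kb at 2 h, 1.94 and 1.73 kb at 4 h, 1.02 and 1.52 kb at 8 h, 1.03 and 0.678 kb at 16 h, 0.358 and 0.364 kb at 24 h, and 1.70 and 1.56 kb at 48 h. Both 24 h libraries were the lowest, and 2 and 4 h overlapped at the top, followed by 48 h (exact F permutation test, adjusted p = 0.0307). The call was lost in the exact test with a replicate block (adjusted p = 0.0663), within 20 kb of the start (0.0550), with the 50000 highest peaks of each list (0.0986), and without 2 h replicate 2 or any library of 4, 16, 24 or 48 h (0.0515 to 0.0729). Different regions made up the high values at the 2 ends of the course. Ier3 -25730 was at 71.7 and 67.7 at 2 h, 7.1 and 49.3 at 4 h and 14.4 in 1 library of 8 h. Ier3 -8710 was called up to 8 h, with 65.9 and 63.8 at 4 h, and lost from 16 h (exact trend permutation test, adjusted p = 0.00915). Ier3 -17513 had peaks at 48 h alone, at 48.0 and 57.0.

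Ier2, with the most regions, did not pass the exact test in covered length (adjusted p = 0.0671). It passed without 4 h replicate 1 (0.0464) and within 20 kb (0.0422). Its mean was 4.66 kb ± 0.14 (SD, n = 2) at 0 h, 3.18 kb ± 0.30 at 8 h and 4.11 kb ± 0.27 at 48 h. Both 0 h libraries were above all others, and 4 and 8 h overlapped at the bottom. Ier2 -6087 was at 83.3 and 84.9 at 2 h, 62.1 and 81.4 at 4 h, and 69.1 and 61.9 at 8 h. Ier2 +1172, in the untranslated region of Ier2 itself, was at 63.8 and 58.9 at 2 h and 36.3 and 34.7 at 4 h. It had a peak in 1 library at 8 h (51.5) and 1 at 16 h (49.9), in both at 24 h (22.9 and 7.8), and none at 48 h. It also held the AP-1 motif.

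Several Ier2 regions were low or missing in the first hours, and some of them returned. Ier2 +7109 was at 79.5 and 59.3 at 0 h, had no peak at 2, 4 or 8 h, and was at 50.7 and 54.6 at 16 h and 44.0 and 44.2 at 48 h. Ier2 -2669 was lost at 2 and 4 h and called again in both 8 h libraries, at 8.1 and 7.8. It had no peak at 16 h and a peak in 1 library each at 24 and 48 h. Ier2 +24318, in an intron of the calcium channel gene Cacna1a, was at 42.5 and 40.1 at 0 h and never called again. Ier2 +12438, named after its values were seen, was called throughout, at 94.2 and 91.7 at 0 h, 48.9 and 58.7 at 2 h, 66.2 and 66.1 at 4 h, 38.2 and 61.0 at 8 h, and between 94.1 and 96.3 from 16 h on. The 2, 4 and 8 h libraries were all under those of other times (exact F permutation test, adjusted p = 0.0173). Ier2 +15212 was lost at 48 h and Ier2 +23419, within Cacna1a, was gained there.

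Myc lost most of its covered length over the course, from 4.72 kb ± 0.63 (SD, n = 2) at 0 h to 0.97 kb ± 0.035 at 48 h. It covered 4.28 and 5.17 kb at 0 h, 3.22 and 4.30 kb at 2 h, 3.04 and 2.58 kb at 4 h, 1.52 and 1.90 kb at 8 h, 2.05 and 1.87 kb at 16 h, 0.962 and 0.985 kb at 24 h, and 0.95 and 0.999 kb at 48 h. The order fell from 0 h to 24 h apart from 8 and 16 h, which overlapped, as did 0 and 2 h, and 24 and 48 h. Time points differed (exact F permutation test, p = 8.88e-05, adjusted p = 0.00868), also within the serum libraries alone (adjusted p = 0.0283). Of its 13 regions, 6 were lost at 48 h, against 14.4% of all assigned regions. The exact trend test took only regions with peaks in 3 to 11 libraries. In it 5 Myc regions fell with time, and of the Myc regions tested only Myc +6638 and Myc +13634 did not pass. Of all regions tested, with or without an assigned gene, 18.2% fell.

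**Figure D4:**
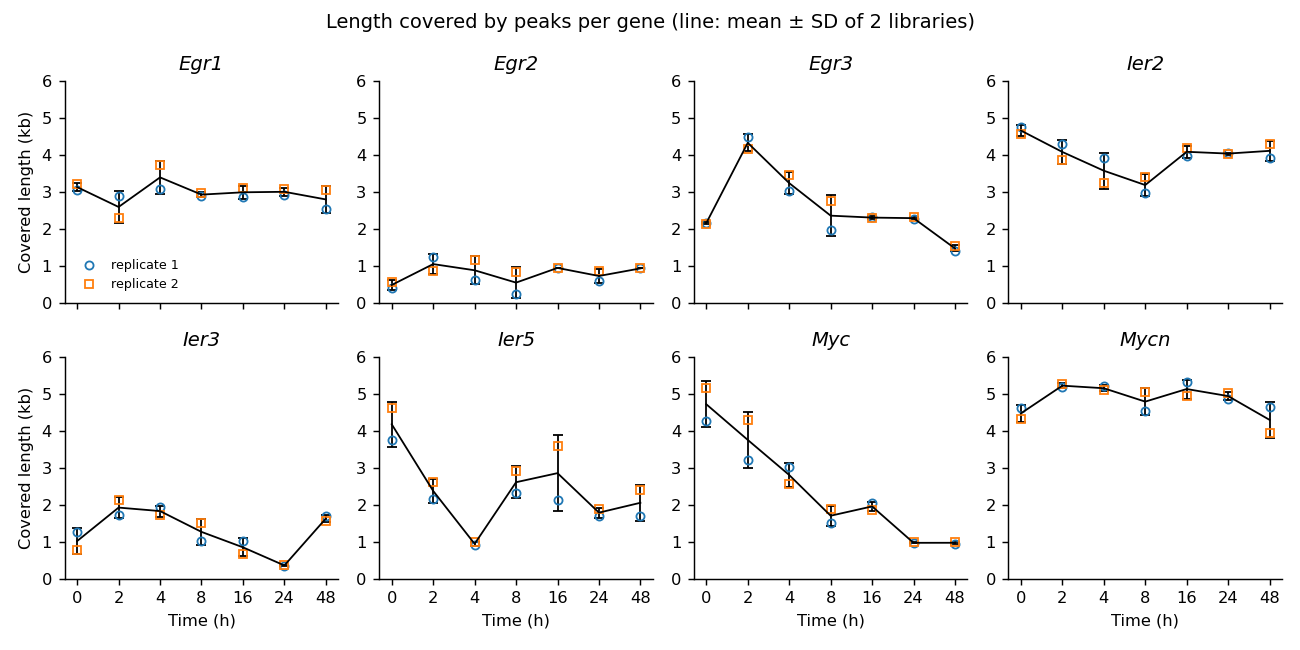
Covered length in kb per gene at each time point (evenly spaced), with 1 point per library and the mean ± SD of 2 libraries as a line. Egr3 peaks at 2 h (4.49 and 4.17 kb), Ier5 is lowest at 4 h, and Myc declines from 4.28 and 5.17 kb to 0.95 and 0.999 kb.

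The early gains of Myc stood against this decline. Myc +6638 was at 86.1 and 80.1 at 2 h and 50.8 and 53.8 at 4 h, and Myc +13634 at 78.3 and 74.9 at 2 h and 36.1 and 57.0 at 4 h. Neither had a peak in any other library. Myc +18805, named after its values were seen, followed them, at 83.2 and 75.9 at 2 h and 36.0 and 38.6 at 4 h, but with a peak in 1 library at 0 h (28.7). It too held the AP-1 motif. Regions of the 0 h cells ended at different times: Myc -6412 (70.2 and 87.7) and Myc +46818 (35.7 and 34.0) had peaks at 0 h alone. Myc +25459 was at 88.6 and 86.9 at 0 h, 90.0 and 88.6 at 2 h and 57.5 and 69.3 at 16 h, and had none at 24 and 48 h (exact trend test, adjusted p = 0.00915). Beside the start, Myc -289, also named after its values were seen, followed the same calls, while Myc +147 was held by all 14 libraries.

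Near Mycn, regions came and went both early and late. It covered 4.48 kb ± 0.22 (SD, n = 2) at 0 h, 5.23 kb ± 0.064 at 2 h, 5.16 kb ± 0.074 at 4 h and 4.30 kb ± 0.49 at 48 h, and did not pass the exact test (adjusted p = 0.150). The libraries of 0 and 48 h overlapped, as did those of 2 and 4 h above them. With its distal regions alone, over 1 kb from the start, it did (exact test, adjusted p = 0.0287). Mycn -3753 was at 26.8 and 48.2 at 2 h, 90.8 and 93.3 at 4 h, 92.6 and 92.2 at 8 h, 87.8 and 91.6 at 16 h, 68.6 and 72.4 at 24 h, and 72.5 and 61.6 at 48 h. Mycn +39295 was at 59.9 and 77.6 at 2 h, 74.5 and 87.0 at 4 h, and 35.9 and 43.0 at 48 h. Neither was called at 0 h, both were called in all 12 libraries after it, and neither held the AP-1 motif. Mycn +39295, unlike Mycn -3753, held no GATA match either. Of its window 79.5% is masked as repeat in the assembly, and whether this touched read placement was not tested. Mycn +21423 was lost at 2 and 4 h, and called again at 16 h only.

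The start of Mycn had peaks only late. Mycn -17 had no peak up to 16 h, 1 at 24 h (33.1) and both at 48 h (65.3 and 61.4), and it rose with time (exact trend test, adjusted p = 0.0317). Mycn -1548, just upstream, was at 92.8 and 94.1 at 0 h, 83.8 and 90.6 at 2 h, and 56.7 and 54.2 at 24 h, and had no peak at 48 h. Mycn -41372, named after its values were seen, was called in all libraries but moved in rank. It was at 29.9 and 5.70 at 0 h, 88.8 and 89.6 at 2 h, 82.7 and 69.3 at 4 h, 79.0 and 73.9 at 8 h, 71.1 and 64.3 at 16 h, 54.4 and 46.6 at 24 h, and 40.1 and 42.5 at 48 h. Both 0 h libraries were under all others and both 2 h libraries above them (exact F permutation test, adjusted p = 0.00358).

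Over the 8 genes, 36 of the 90 regions had peaks in 3 to 11 libraries and entered the trend test. Of these 4 rose with time and 10 fell. They made up 4.44% and 11.1% of the 90, against 7.96% and 6.70% of all assigned regions. Of all 55973 regions tested, with or without an assigned gene, 18.1% rose and 18.2% fell. The rises were 2 regions each of Ier2 and Mycn. The falls were 5 of Myc, 2 of Ier5 and 1 each of Egr1, Ier2 and Ier3. There were 2 rises without 48 h replicate 2 and 6 falls without 0 h replicate 2.

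The AP-1 motif was frequent among the early gains beyond the 6 windows shown at the start. It was in the 200 bp windows of 10 of the 12 regions gained at 2 h (83.3%), in 18 of all 90 (20%) and in none of the 9 lost at 2 h or the 10 gained at 48 h. It was in 44.5% of all assigned regions gained at 2 h, 55.1% of the 2270 with the early pattern, 2.71% of those lost at 2 h, 6.88% of those gained at 48 h, and 11.6% of all windows. The 2 gains of 2 h without it were Mycn -3753 and Mycn +39295. The GATA motif was in 4 of the 12 (33.3%) and in 3 of the 10 gained at 48 h (30%), against 45.5% and 54.4% of all assigned regions gained at those times, and in 35.5% of all windows.

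The other motifs were in few of the 90 windows. CCGGAA was in 9 (10%), against 5.80% of all windows and 6.85% of assigned ones. The EGR motif GCGNGGGCG was in 3 (3.33%), against 1.35% and 1.82%. CACGTG was in 1 (1.11%), against 3.47% of all windows. The CRE motif TGACGTCA was in 1 (1.11%), that of Ier2 -3, against 0.417%. None of these was in a window gained at 2 h. A match is only letters in a window, and no factor was measured on it here. Windows gained at 2 h had a median GC content of 51.5%, those of the 90 regions 53.8% and all windows 50.5%.

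**Figure D5:**
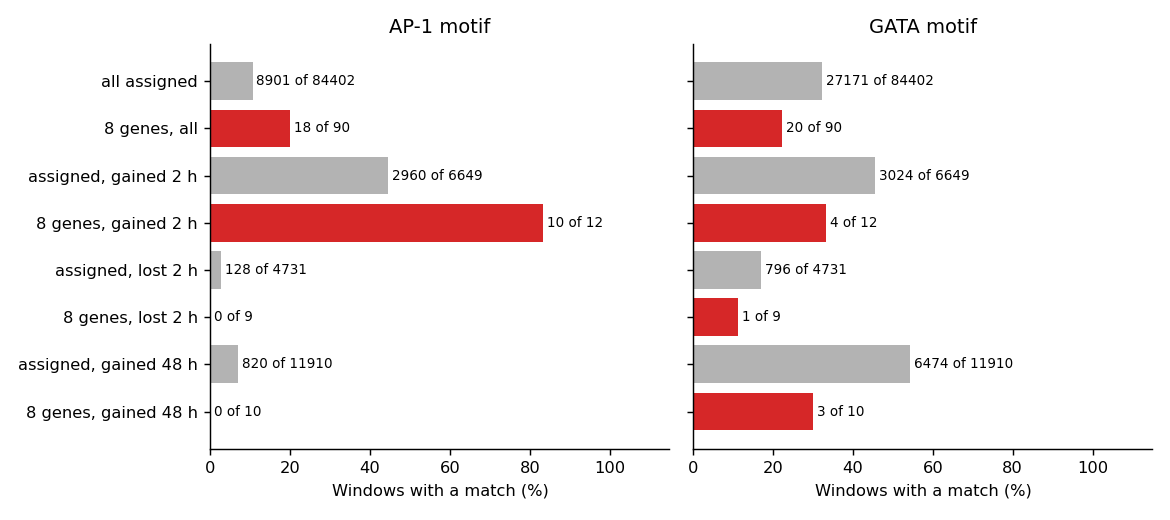
Share of 200 bp windows, in percent, with a match to the AP-1 motif (left) or the GATA motif (right), for the regions of the 8 genes (red) and all assigned regions (grey), with counts. The longest red bar is AP-1 at 2 h gains, 10 of 12, and there is no red bar for AP-1 among losses of 2 h or gains of 48 h.

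Related genes were counted in the same way. Near 17 other immediate-early transcription factor genes, among them Fos, Jun and Klf6, 15 of 149 regions (10.1%) were gained at 2 h and 8 (5.37%) lost, and 5 (3.36%) had the early pattern. Klf6 alone gave 7 of those gains and 4 of the 5. Near 19 other immediate-early genes, such as Dusp5 and Ccn1, 25 of 204 (12.3%) were gained and 17 (8.33%) lost, and 7 (3.43%) had the pattern. Near 9 ERK feedback genes, such as the Sprouty genes, 10 of 135 (7.41%) were gained and 9 (6.67%) lost, with none of the pattern. Near 9 genes of the MYC network, such as Max and the Mxd genes, 6 of 78 (7.69%) were gained and 4 (5.13%) lost, and 3 (3.85%) had it. Covered length passed for 4 of 17, 8 of 19, 1 of 9 and 4 of 9 genes of these lists.

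The genes with the course of covered length most like each of the 8 were found over 14 libraries among 11582 genes with 3 or more regions, as a description. For Myc they were Tnfrsf1b (Pearson r = 0.961) and Recql5 (0.961), for Egr3 Rims2 (0.948) and Iws1 (0.935), and for Ier3 Gm10271 (0.902) and Ptpn21 (0.867). For Ier5 they were Bsn (0.881) and Nt5dc2 (0.874), for Mycn Hist1h4n (0.898) and Ffar3 (0.873), for Ier2 Ebag9 (0.865) and Lrrc18 (0.836), for Egr1 Dnajc9 (0.867) and Dzip1l (0.826), and for Egr2 Golt1a (0.813) and Cnksr3 (0.810). Among the 8 themselves r ran from -0.409 for Ier5 and Mycn to 0.686 for Egr3 and Mycn. All these values share the same libraries and their depth.

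The lists held 55588 to 65073 peaks, and read depth is unknown. The libraries of a time point shared under 1% of peaks with the same ends, so neither list of a pair was a copy of the other. Of the promoters of 8 ES cell markers 3 had peaks in both 0 h libraries, as did 2 of 10 of primitive endoderm, 2 of 4 of trophectoderm and 0 of 4 of fibroblast markers. Near the primitive endoderm markers 55 of 135 regions (40.7%) were gained at 48 h, against 14.1% of all assigned regions, and 9 (6.67%) at 2 h, against 7.88%. Near the trophectoderm markers 6 of 40 (15%) were gained at 2 h and 10 (25%) at 4 h, and 3 (7.5%) had the early pattern. Near the fibroblast markers 5 of 21 (23.8%) were gained at 2 h and 3 (14.3%) at 4 h, and 1 (4.76%) had the pattern. Near the ES cell markers 7 of 112 (6.25%) were gained at 2 h and 8 (7.14%) at 4 h, and 2 (1.79%) had it. Whether the mix of cell types had a part in the early or later changes of the 8 genes was not tested. The genes lie on chromosome 10 (Egr2), 14 (Egr3), 8 (Ier2), 17 (Ier3), 1 (Ier5), 15 (Myc) and 12 (Mycn), with Egr1 on 18.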

How the data were processed

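ATAC-seq peak lists of 14 libraries, 2 per time point, were used. The authors processed reads with the ENCODE ATAC-seq pipeline and deposited, per library, peak intervals with a score whose scale is not stated. Per the file names, peaks passed an irreproducible discovery rate of 0.05 between pseudoreplicates of that library and a blacklist filter. The labels name mm10 and GRCm38, and no peak ran past a GRCm38 chromosome end. Since the lists hold no read counts, depth is unknown and no read-based interval can be given. The labels do not say whether the 2 libraries of a time point came from separate cultures, so p-values measure the spread between libraries, which may be technical.

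Peaks overlapping by 1 bp or more were merged, and each region was assigned to the nearest 5′ end of a protein-coding gene (GENCODE M21) within 50 kb of its centre. Older symbols were matched through the RefSeq gene table. A region was called in a library that covered at least 1 bp of it. The exact F permutation test was one-sided and used all 135135 ways of pairing 14 libraries. It was applied to covered length (17435 genes) and to score percentile (18809 regions called in all libraries). The exact two-sided trend test used the summed ranks of the times of calling libraries (regions called in 3 to 11 libraries). P-values were adjusted by Benjamini-Hochberg over all features tested, with a threshold of 0.05. Gained and lost regions were counted without a test. Motifs were sought on both strands of the central 200 bp of every region. Python 3.11.15, numpy 2.4.6, scipy 1.17.1 and matplotlib 3.10.9 were used.

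The 8 genes, the other gene lists and the markers were chosen with earlier results of these data known. Regions named in full were, per gene, the promoter region (the one over the 5′ end, else the nearest within 1 kb), up to 3 gained and up to 3 lost at both 2 and 4 h by highest percentile, and up to 1 gained and 1 lost at 48 h but not at 2 or 4 h. A few other regions are marked in the text as named after their values were seen. Alternatives were the 50000 highest peaks, 50% cover, merging within 200 bp, 20 kb, transcript starts, 1 library in place of both, each library left out, no 0 h libraries, a replicate block, region counts, distal regions and peak width. Deviations of same-numbered libraries from their time point's mean correlated between -0.015 and 0.012 over 21 pairs of time points. On this measure replicate numbers showed no pairing. Replicate 2 lists nevertheless held more peaks than replicate 1 lists at every time point, from 61403 against 61393 at 8 h to 60483 against 56924 at 0 h. Whether the replicate block is a true pairing is therefore not known. No sample columns were left unused.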

Additional observations from a re-analysis of the deposited data

Results flagged for a closer look

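Covered length of Egr3 moved in opposite directions against 0 h at different time points. The mean was 2.17 kb above 0 h at 2 h, 1.08 kb above at 4 h, 0.148 kb above at 16 h and 0.133 kb above at 24 h, and -0.687 kb against 0 h at 48 h. At each of these times both libraries lay on the same side of both 0 h libraries, and the difference between the time points was not tested on its own. Covered length of Ier3 was likewise 0.906 kb above 0 h at 2 h, 0.812 kb above at 4 h and 0.609 kb above at 48 h, and -0.661 kb against 0 h at 24 h, with the difference between them not tested on its own.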

How the results depend on the processing

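Across 52 results, 187 of 223 alternatives kept the direction and the side of the threshold, or a count within 1.5 times, and so did 205 of 258 values with 1 library left out. The number of genes with a called covered length was 0 when regions called were counted in place of bp. It was 3 with the replicate block, which may or may not be a true pairing, and 2 to 3 with a library left out. The number of promoters with a called percentile was 0 by peak width and 0 to 1 with a library left out. With at least 1 library against neither, gains were 9 at 8 h and 12 at 16 h and losses 15 at 2 h. With the 50000 highest peaks, gains at 24 h were 5. Within 20 kb, where fewer regions are assigned, gains were 7, 3, 4 and 5 at 4, 8, 24 and 48 h, losses 4, 6, 4, 5, 5 and 8 at 2, 4, 8, 16, 24 and 48 h, and falls with time 6. Rises with time were 1 at 50% cover and 2 with peaks within 200 bp merged. With a library left out, gains at 16 h were 7 to 9 (9 without 0 h replicate 1 or 16 h replicate 1, and 8 without 16 h replicate 2), falls 6 to 9 and rises 2 to 5. With the block the trend test gave 8 falls and 3 rises, and the percentile test kept 1 promoter. Of the named regions' library counts, 5 moved: Egr2 +735 (6), Ier2 -2669 (4) and Ier3 -25730 (3) with the 50000 highest peaks, and Ier3 -155 (5) and Ier5 +432 (11) at 50% cover. Apart from Ier3, the block changed no call of a named gene. The causes of these shifts were not tested, other than fewer regions or libraries entering. The unknown read depth limits every statement that a peak is absent, since a site under the caller's threshold is not shown to be closed.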
